A study of Mus musculus with 24 samples.

Results

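Glycolysis and hypoxia genes were followed across 24 mouse arrays. The set held 37 genes for glucose transporters, glycolytic enzymes, enzymes that set the fate of pyruvate and lactate, the hypoxia-inducible factor with its prolyl hydroxylases, and other genes induced by low oxygen. Members were chosen by gene symbol. Of the 37 genes, 34 had a probe set with that symbol alone, out of 17097 genes tested in all. Gpi1, Eno1 and P4ha1 were not analysed here. The 34 genes had 63 probe sets, and each gene was read from the probe set with the largest spread.

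The study asked how C/EBPβ acts together with loss of Blnk in leukaemia of precursor B cells. BKO408 is a preB-ALL (precursor B-cell acute lymphoblastic leukaemia) line from a mouse lacking Blnk, the adaptor protein that carries the signal of the pre-B-cell receptor. It was grown with 5 ng/ml IL-7. The groups were BKO408 cells with a retrovirus for LAP (n = 4), against BKO408 cells (n = 4), so that both groups lacked Blnk. LAP is the activating form of C/EBPβ, the transcription factor encoded by Cebpb. The primary tumours were LAP B-ALL (n = 4) from Cebpb LAP transgenic mice, LAP/Blnk preB-ALL (n = 3) from transgenic mice that also lacked Blnk, LAP preB-ALL (n = 4) from transgenic mice, and Blnk preB-ALL (n = 5) from mice lacking Blnk. The sources used here do not give the promoter of the transgene, the tissue sampled, its share of tumour cells, or the strain, sex and age of the mice. Whether replicates were separate cultures or animals is also not said, and p-values measure only the spread between these samples.

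Glycolysis turns glucose into pyruvate in the cytosol. Lactate dehydrogenase then converts pyruvate to lactate, or pyruvate enters the mitochondria and is used by pyruvate dehydrogenase, which pyruvate dehydrogenase kinases restrain. When oxygen is low, hypoxia-inducible factor (HIF) is spared from degradation, which prolyl hydroxylases otherwise start, and it raises transcription of many glycolytic genes. Rapidly dividing lymphoid cells are known for high glucose use, also in the presence of oxygen.

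Values are given on a log2 scale, where 0 is the middle of the 8 cell-line arrays for cells and of the 16 tumours for tumours. No expression level or detection call can be read from these values, so genes are not compared in level and cells are not set against tumours.

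HIF binds cores that read ACGTG or GCGTG, and the promoters below were chosen because Ero1a and Vegfa had the largest rises in cells and Bnip3 one of the largest falls in tumours. Each is the 250 bases before the start of transcription in RefSeq, build GRCm38.p6, on the minus strand, and capitals mark either core on either strand. The stretches are chr14:45318573-45318822 for Ero1a, chr17:46032378-46032627 for the first listed start of Vegfa, and chr7:138909507-138909756 for Bnip3.
Ero1a: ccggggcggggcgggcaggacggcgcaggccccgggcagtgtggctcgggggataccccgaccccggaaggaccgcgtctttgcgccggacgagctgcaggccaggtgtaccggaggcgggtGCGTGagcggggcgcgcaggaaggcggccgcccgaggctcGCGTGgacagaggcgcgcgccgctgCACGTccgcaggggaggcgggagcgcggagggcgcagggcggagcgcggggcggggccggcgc
Vegfa: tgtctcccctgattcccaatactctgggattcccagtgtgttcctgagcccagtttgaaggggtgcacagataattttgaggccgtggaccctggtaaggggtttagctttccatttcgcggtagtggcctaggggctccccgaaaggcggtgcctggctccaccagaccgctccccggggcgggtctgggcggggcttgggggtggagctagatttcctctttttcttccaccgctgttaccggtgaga
Bnip3: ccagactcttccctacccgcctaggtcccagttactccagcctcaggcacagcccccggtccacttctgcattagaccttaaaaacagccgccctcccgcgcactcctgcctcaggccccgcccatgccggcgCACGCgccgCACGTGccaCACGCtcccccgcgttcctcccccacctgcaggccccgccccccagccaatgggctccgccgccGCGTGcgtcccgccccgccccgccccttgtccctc

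The Ero1a stretch held 1 ACGTG and 2 GCGTG, the Bnip3 stretch 2 ACGTG and 3 GCGTG, and the Vegfa stretch neither. The promoter of another listed Vegfa start, chr17:46025114-46025413, held 1 ACGTG and 1 GCGTG. In Bnip3 both ACGTG matches lie in 1 CACGTG, the palindromic E-box core, read on either strand. RefSeq promoters of 250 bases before to 50 bases after a start were matched for 31 of the 34 genes, 45 promoters in all. ACGTG was in 60.0% of these 45 promoters and in 22.8% of the promoters of all genes tested. GCGTG was in 55.6% against 43.1%, CACGTG, which contains ACGTG, in 13.3% against 8.69%, and the C/EBP motif TTNNGNAAT in 11.1% against 8.42%. The members' promoters held a median of 21 CG dinucleotides, against 16 over the genes tested, and both HIF cores contain CG. A match of letters is not evidence of binding, and sequence outside these windows was not searched.

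The labels set 2 stages apart, preB-ALL and B-ALL, but Vpreb1, a surrogate light chain of the pre-B-cell receptor, went against them in 3 tumours. LAP B-ALL 1 to 4 had Vpreb1 at -8.84, -8.78, -8.97 and 0.14. LAP preB-ALL 1 to 4 had it at -0.11, -8.49, 0.01 and -8.89, and the other tumours between -0.45 and 0.35. By Vpreb1, LAP preB-ALL 2, LAP preB-ALL 4 and LAP B-ALL 4 thus went against their labels. The B-lineage markers Ms4a1 and Cd74 did not go against the label of LAP B-ALL 4. There Ms4a1 was at 1.85 and Cd74 at 1.30, with 2.96 to 3.68 and 2.34 to 3.13 in LAP B-ALL 1 to 3. LAP preB-ALL 1 to 4 had Ms4a1 at -3.87, 3.87, -4.67 and 1.94. Blnk and LAP/Blnk preB-ALL had Ms4a1 between -4.69 and 1.28 and Cd74 between -2.32 and 1.12. Over all genes LAP preB-ALL 4 correlated best with LAP B-ALL 3 (r = 0.857), and LAP B-ALL 4 with Blnk preB-ALL 5 (r = 0.288). Cebpb was at -3.11 in LAP B-ALL 4, within the range of Blnk preB-ALL (-4.50 to -1.94) and below the other transgenic tumours (-1.41 to 0.90). Blnk itself was no check of the labels, since it is not known whether its probe set lies in the deleted part. The tumour results are given with and without these 3 tumours, which leaves LAP B-ALL 1 to 3 and LAP preB-ALL 1 and 3.

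Markers of other cells also moved between tumours. The median of 10 erythroid and platelet markers measured, of 13 listed, was 5.08, 5.43, 6.17 and 1.00 in LAP B-ALL 1 to 4, 5.77 in LAP preB-ALL 4 and -0.62 to 0.39 in the other 11 tumours. The median of 11 granulocyte markers was 1.60 to 2.83 in LAP B-ALL, 2.60 in LAP preB-ALL 4 and 3.40 in Blnk preB-ALL 5, against -1.03 to 0.84 in the others. The ratio of 3′ to 5′ control probe sets of Gapdh, a sign of RNA quality, stayed between -0.149 and 0.149 in all tumours, and that of Actb between -0.0955 and 0.197. Blnk preB-ALL 5 was the highest on both. Every probe set was centred over the tumours, so these ratios compare tumours with each other and cannot show whether the RNA was intact. In bulk RNA, fewer cells of a type and less RNA per cell cannot be told apart.

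In BKO408 cells with the LAP retrovirus, genes of the set differed from BKO408 cells in both directions. Ero1a and Vegfa rose the most, and Pfkfb3, Ldha, Higd1a and Hk2 rose by small amounts, while Ndrg1, Pfkp, Pfkm, Kdm3a and Tpi1 fell. In all, 11 of 34 members passed the threshold (limma, adjusted p under 0.05 over all genes), against a background of 22.3% of the genes tested (10.5% higher, 11.8% lower). Of the 34 differences 11 were positive and 23 negative, with a median of -0.050 against -0.015 over all genes tested. The groups did not overlap for 15 of the 34 members, against 26.8% of all genes, and these include the 11 past the threshold. The members' median SD within a group was 0.0307 with LAP and 0.0451 without, so small differences were resolved here. Cebpb itself was at 0.11, 0.24, 0.026 and -0.012 in LAP cells, against -0.14, 0.012, -0.054 and -0.057 in BKO408 cells. These groups overlapped, and whether the probe set reads the transcript of the retrovirus was not tested. The sample titles do not say whether the BKO408 cells carried an empty virus.

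**Figure D1:**
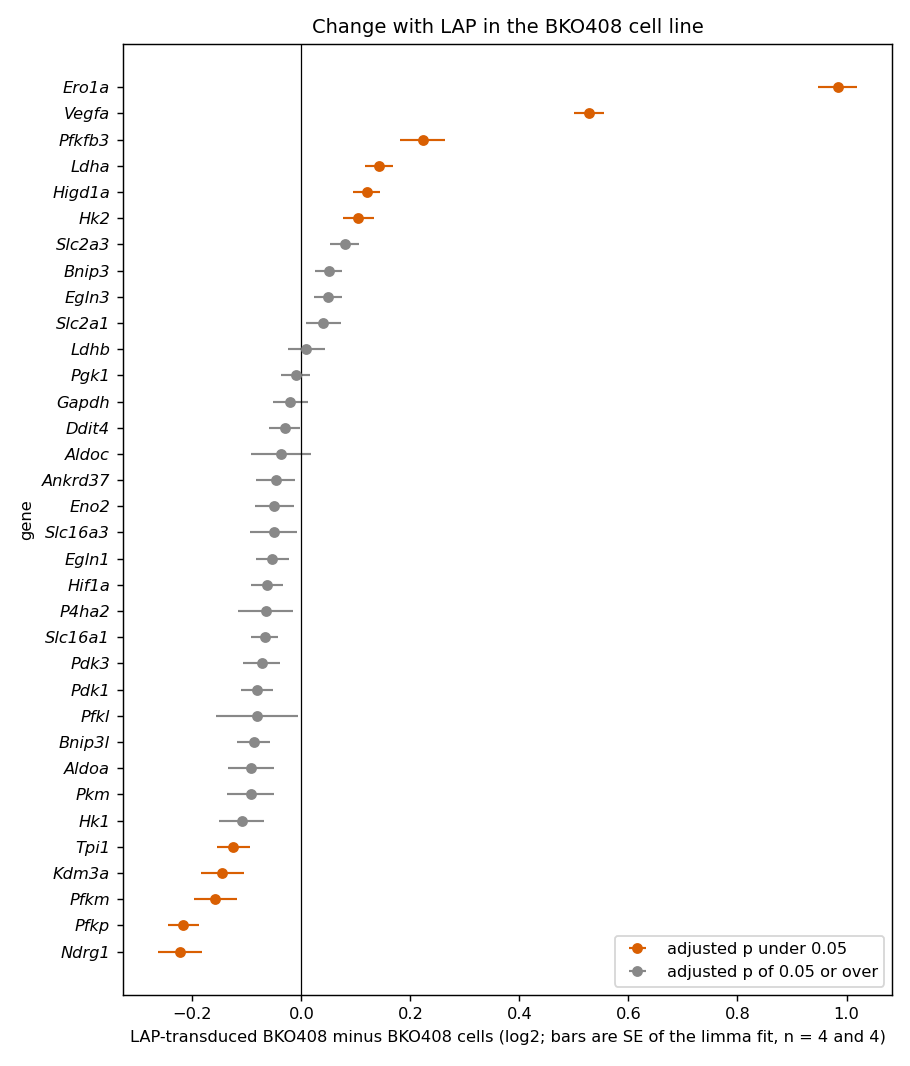
Difference between LAP-transduced BKO408 cells and BKO408 cells (log2) for each of 34 genes, with the SE of the limma fit and n = 4 in each group. Ero1a (0.98) and Vegfa (0.53) stand apart, and all other differences lie between -0.22 and 0.22.

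Ero1a, an oxidase of the endoplasmic reticulum that forms disulfide bonds and is induced by low oxygen, was at 0.51, 0.44, 0.49 and 0.50 in LAP cells 1 to 4, against -0.57, -0.45, -0.44 and -0.55 in BKO408 cells 1 to 4. The groups lay far apart relative to the spread within each. It rose 1.98-fold (log2 difference 0.98 ± 0.036 SE, limma adjusted p = 1.41e-07), and its 3 probe sets gave differences of 0.83 to 0.98. Vegfa, the growth factor for blood vessels, was at 0.26, 0.27, 0.24 and 0.23 in LAP cells, against -0.27, -0.29, -0.23 and -0.32 in BKO408 cells. It rose 1.44-fold (0.53 ± 0.027, limma adjusted p = 1.62e-06), and both of its probe sets rose by similar amounts, 0.53 and 0.57. Higd1a, a small protein of the mitochondrial respiratory chain, was at 0.074, 0.037, 0.039 and 0.065 in LAP cells, against -0.090, -0.078, -0.037 and -0.058 in BKO408 cells. Its rise was 1.09-fold (limma adjusted p = 0.00813).

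No other gene of the hypoxia-inducible role passed the threshold as higher. Ndrg1, a stress-responsive gene linked to growth arrest and differentiation, was at -0.040, -0.083, -0.084 and -0.099 in LAP cells, against 0.19, 0.13, 0.040 and 0.22 in BKO408 cells. It fell 1.17-fold (log2 difference -0.22 ± 0.041 SE, limma adjusted p = 0.00368). Kdm3a, a histone demethylase, was at -0.030, -0.15, -0.033 and -0.037 in LAP cells, against 0.12, 0.030, 0.044 and 0.14 in BKO408 cells, and fell by 0.15 (limma adjusted p = 0.0263). The call for Kdm3a was lost without BKO408 replicate 1 or 4 or LAP replicate 2, with adjusted p up to 0.0679. Bnip3, Bnip3l, Ddit4, Ankrd37 and P4ha2 did not pass, with differences of -0.087 to 0.050. The groups of Bnip3 did not overlap, at 0.0091 to 0.047 in LAP cells against -0.053 to -0.0091 in BKO408 cells. Those of Bnip3l did not overlap either, with LAP cells lower. Thus 3 of 10 measured genes of this role passed as higher and 2 as lower.

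HIF and its prolyl hydroxylases did not pass the threshold. Hif1a, the oxygen-regulated subunit of HIF, was at -0.025, 0.0020, -0.0020 and -0.0094 in LAP cells, against 0.10, -0.0045, 0.068 and 0.050 in BKO408 cells, and its groups overlapped. Its log2 difference was -0.063, while its second probe set gave 0.035. Egln1 and Egln3, which hydroxylate HIF, differed by -0.053 and 0.050.

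Among enzymes of the energy-investing phase of glycolysis, 2 of 9 rose and 3 fell. Pfkfb3, which makes the activator of phosphofructokinase, was at 0.047, 0.070, 0.12 and 0.042 in LAP cells, against -0.23, -0.16, -0.042 and -0.18 in BKO408 cells. It rose by 0.22 (SE 0.042, limma adjusted p = 0.00399), although its second probe set differed by only 0.051. Hk2, the hexokinase induced in many tumours, was at 0.021, 0.038, 0.073 and 0.022 in LAP cells, against -0.063, -0.068, -0.021 and -0.11 in BKO408 cells. Its difference of 0.10 (limma adjusted p = 0.0270) lost the call in 5 of 8 fits that left out 1 array: without BKO408 replicates 1, 2 or 4 or LAP replicates 2 or 3.

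Both the platelet and the muscle forms of phosphofructokinase were lower. Pfkp was at -0.14, -0.11, -0.083 and -0.081 in LAP cells, against 0.12, 0.097, 0.081 and 0.16 in BKO408 cells. It fell by 0.22 (SE 0.028, limma adjusted p = 5.04e-04), but its second probe set differed by 0.027 in the other direction. Pfkm was at -0.16, -0.056, -0.012 and -0.098 in LAP cells, against 0.13, 0.012, 0.11 and 0.061 in BKO408 cells, and fell by 0.16 (limma adjusted p = 0.0175). Tpi1, which interconverts the 3-carbon sugars, was at -0.087, -0.11, -0.066 and -0.023 in LAP cells, against 0.070, 0.023, 0.025 and 0.094 in BKO408 cells. Both of its probe sets were lower, with differences of -0.12 and -0.14 (limma adjusted p = 0.0160 for the first). Hk1, Pfkl, Aldoa and Aldoc did not pass, with differences of -0.11 to -0.037.

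Transport of glucose and the energy-yielding phase of glycolysis held no gene past the threshold. Slc2a1, the main glucose transporter of blood cells, was at -0.0085, 0.0085, 0.046 and 0.021 in LAP cells, against -0.080, -0.036, -0.021 and 0.044 in BKO408 cells. Slc2a3, a high-affinity transporter, did not overlap between groups but missed the threshold (0.079, limma adjusted p = 0.0655). Pgk1, which makes the first ATP of the pathway, was at -0.013, -0.045, 0.0065 and 0.0055 in LAP cells, against -0.039, 0.0017, -0.0017 and 0.037 in BKO408 cells. Gapdh, Eno2 and Pkm differed by -0.020, -0.049 and -0.093.

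Of the genes for the fate of pyruvate and lactate, Ldha rose. Ldha, the lactate dehydrogenase subunit that favours lactate, was at 0.089, 0.050, 0.084 and 0.071 in LAP cells, against -0.050, -0.054, -0.099 and -0.071 in BKO408 cells. The rise was 1.10-fold (0.14 ± 0.025, limma adjusted p = 0.00295). Ldhb, the subunit more common in the heart, differed by 0.0090. The lactate exporters Slc16a1 and Slc16a3 and the kinases Pdk1 and Pdk3 did not pass, with differences of -0.081 to -0.051.

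**Figure D2:**
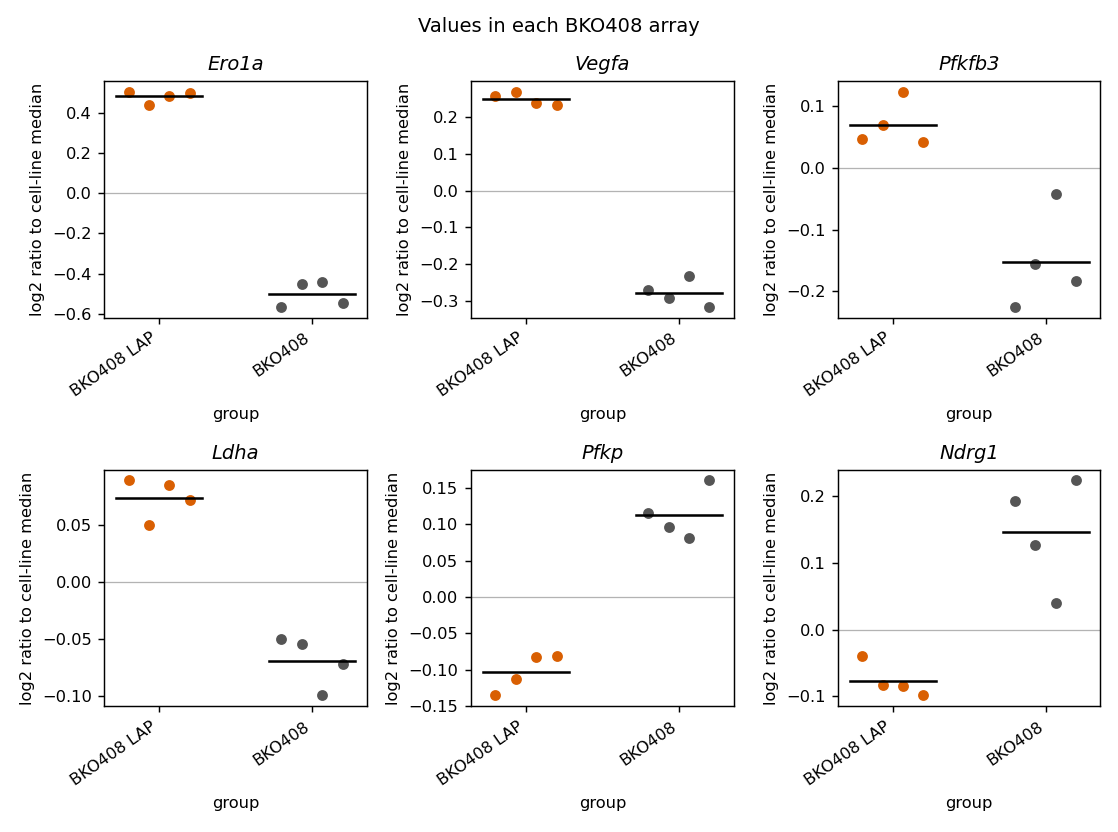
Log2 ratio to the cell-line median for 6 genes in each array, LAP-transduced BKO408 left and BKO408 right, with black bars at the group means (n = 4 each). Ero1a, Vegfa, Pfkfb3 and Ldha lie higher and Pfkp and Ndrg1 lower with LAP, with no overlap between groups, and the vertical scales differ.

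Genes next to these pathways moved as well. Of 40 other hypoxia genes measured, 10 rose and 1 fell, against 10.5% higher and 11.8% lower over all genes tested. Those that rose included Adm, a vasodilator peptide (0.31), Wsb1, a ubiquitin ligase subunit (0.29), and Jmjd6 (0.26). Vhl, which marks hydroxylated HIF for degradation, also rose (0.24). Of 20 other glycolysis genes, Tigar, Eno3 and Bpgm rose, by 0.26, 0.21 and 0.14. In the tricarboxylic acid cycle 2 of 17 genes rose and 5 fell, with Dlst at -0.24, Idh2 at -0.22, Cs at -0.14 and Sdhb at 0.13. For pyruvate entry into mitochondria, 1 of 10 rose and 2 fell: Mpc1, a pyruvate carrier subunit, differed by 0.096, Pcx, which makes oxaloacetate, by -0.27 and Pdha1, a pyruvate dehydrogenase subunit, by -0.14.

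In the pentose phosphate pathway, which branches off after hexokinase, 3 of 8 genes rose and 2 fell. Pgls, the lactonase of its oxidative arm, differed by -0.33 and Rpia, the isomerase of ribose phosphates, by 0.31. Among 14 regulators of glycolytic genes 4 rose and 2 fell: Mycn, a transcription factor that drives glycolytic genes, differed by 0.38, Txnip, which restrains glucose uptake, by 0.29, and the growth-signalling kinases Mtor and Akt1 by -0.40 and -0.23. Of 20 cell-cycle genes 1 rose and 11 fell, with Top2a at -0.37, Ccne1 at -0.36, Ccne2 at -0.35 and Mcm7 at -0.24. In each of these lists the share called can be read against the background of 22.3% (10.5% higher, 11.8% lower).

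Genes that respond to cell handling moved with LAP in the same cells. All 9 measured genes of that list were higher and 7 passed, with Fos at 1.56, Egr1 at 0.84, Dusp1 at 0.62 and Jun at 0.52. The median of the list was 0.173 to 0.231 in LAP cells, against -0.203 to -0.129 in BKO408 cells. Markers of monocytes and macrophages moved as well: 4 of 12 measured rose and 1 fell, with Cybb at 2.29, Ccr2 at 2.25 and Lyz2 at 1.53. Of 12 B-lineage markers 1 rose and 5 fell, with Rag1 at -1.32 and Rag2 at -1.19. The part of handling or of a changed cell state in the values of Ero1a and Vegfa was not tested. The whole design rested on 8 arrays with their own spread: when all 24 arrays shared 1 estimate of the spread, only Ero1a passed among the 34 members.

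A related question, LAP on a Blnk-deficient background, was asked in tumours by LAP/Blnk preB-ALL against Blnk preB-ALL. It is not the same comparison: LAP came from a retrovirus in a cell line, but from a transgene of the mice in primary tumours. No member passed the threshold, against a background of 0.0175% (3 genes). At an unadjusted limma p under 0.05, 4 members were below, against 5.79% of all genes. The groups did not overlap for Ldhb and Egln1, against 5.36% of all genes. Ldhb was at -0.43, -0.46 and -0.63 in LAP/Blnk preB-ALL, against -0.11, 0.13, -0.29, -0.26 and 0.14 in Blnk preB-ALL, a difference of -0.43 ± 0.13 (limma adjusted p = 0.461). Egln1 was at -0.87, -0.066 and -0.12 in LAP/Blnk preB-ALL, against 1.12, 0.63, 0.42, 0.18 and -0.023 in Blnk preB-ALL (-0.82 ± 0.29, limma adjusted p = 0.626). The median difference of the 34 members was -0.051, against -0.021 over all genes, with 10 positive and 24 negative.

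Ero1a, the gene with the largest rise in cells, did not rise in these tumours. It was at -0.50, -0.078 and -0.22 in LAP/Blnk preB-ALL, against 0.37, 0.20, -0.14, 0.029 and -0.32 in Blnk preB-ALL, and the groups overlapped. The tumour difference was -0.29 ± 0.18, with -0.34 and -0.20 for its other probe sets, against 0.98 ± 0.036 in cells. A test of the difference between both LAP effects, LAP in tumours minus LAP in cells, gave -1.28 ± 0.18 (limma adjusted p = 0.0034), and Ero1a was the only member past the threshold against a background of 1.05%. The result held in each of 16 fits that left out 1 array, with adjusted p up to 0.0131. These fits assumed 1 spread for cells and tumours, which the values of Ero1a do not share. Its SD was 0.029 with LAP and 0.063 without in cells, but 0.21 in LAP/Blnk preB-ALL and 0.27 in Blnk preB-ALL. Vegfa differed by 0.0036 ± 0.89 in these tumours, and the difference from its rise in cells was not past the threshold. The SE came from the spread of all 16 tumours, and without the 3 tumours above it was 0.40 for the same difference. No member passed in that fit either, against a background of 0.0234% (4 genes). Ddit4, an inhibitor of growth signalling, had the largest difference in size of the 34 members in these tumours, -1.22 ± 0.39 (limma adjusted p = 0.561).

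**Figure D3:**
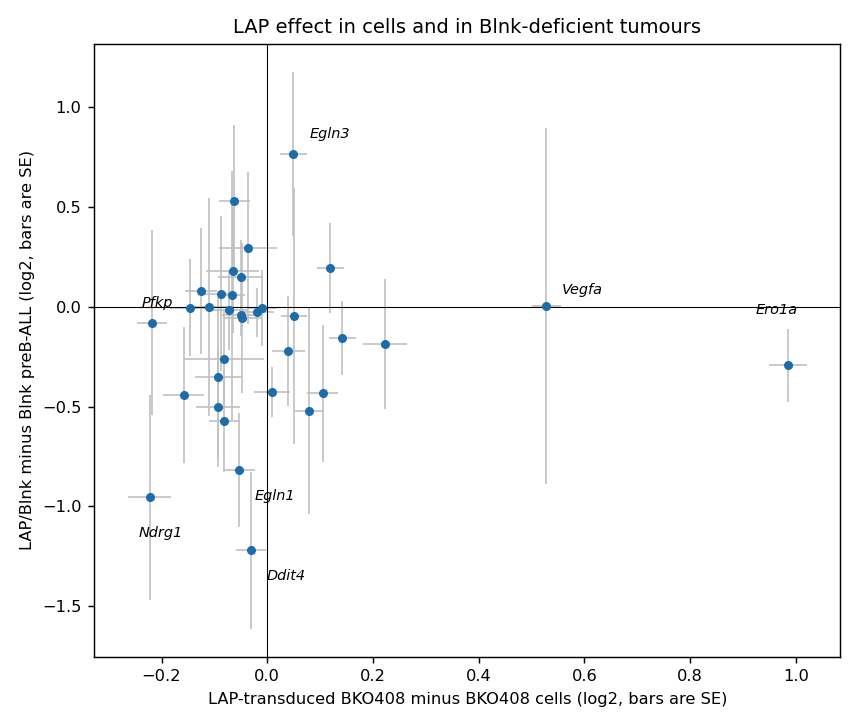
Effect of LAP in BKO408 cells (horizontal, log2) against the difference between LAP/Blnk and Blnk preB-ALL (vertical, log2) for 34 genes, with SE bars from the limma fits. Ero1a lies at 0.98 in cells and -0.29 in tumours, and the tumour SE is several times that of the cells for most genes.

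LAP/Blnk preB-ALL against LAP preB-ALL asked what loss of Blnk adds to LAP. Ldhb and Pfkl fell, 2 of 34 members against a background of 2.37% (1.59% higher, 0.784% lower). Ldhb was at -0.43, -0.46 and -0.63 in LAP/Blnk preB-ALL, against 0.082, 0.26, 0.27 and 0.077 in LAP preB-ALL. It was lower in each LAP/Blnk tumour than in any of the others of this comparison (-0.68 ± 0.13, limma adjusted p = 0.0225), though its second probe set differed by only -0.31. Pfkl, the liver form of phosphofructokinase, was at -0.37, -0.22 and -0.81 in LAP/Blnk preB-ALL, against 0.40, 1.15, 0.85 and 0.045 in LAP preB-ALL (-1.08 ± 0.25, limma adjusted p = 0.0421). Its 3 probe sets differed by -1.08, -0.82 and -0.34. The groups did not overlap for 9 of 34 members, against 17.3% of all genes. Of these 9, 1 was higher and 8 lower. The higher one, Slc16a1, a transporter of lactate and pyruvate, had the largest difference (1.30 ± 0.65, limma adjusted p = 0.312), and LAP preB-ALL 2 was at -3.64. Among the lower ones were Slc2a1 (-0.85), Hk2 (-1.16), Aldoa (-1.12) and Ero1a (-0.65), none of which passed the threshold.

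The glucose transporters and the enzymes of the energy-investing phase had negative differences in 11 of 11 genes. Their medians were -0.71 for the 2 transporters and -0.62 for the 9 enzymes, against -0.025 over all genes tested. Over all 34 members the median was -0.40, with 24 negative and 10 positive. Of all 17097 genes tested, 9239 were negative. Without the 3 tumours above, the 11 genes were no longer all negative: Pfkp differed by 0.0031 and Aldoc by -0.012, and the others stayed negative. Markers of B-lineage cells moved in the same comparison: the median of 12 markers was 0.20 to 0.36 in LAP/Blnk preB-ALL, against -0.87 to -0.12 in LAP preB-ALL. Their median difference was 0.79, with 9 positive and 3 negative and none past the threshold. The groups did not overlap for 7 of 12, with 6 higher and 1 lower, against 17.3% of all genes. Other lists differed too. The median difference was -1.65 for 10 erythroid and platelet markers (9 negative) and -0.57 for 12 monocyte and macrophage markers (11 negative). For 10 markers of stroma and endothelium it was 0.63 (9 positive). The B-lineage list holds Vpreb1, which was low in LAP preB-ALL 2 and 4. The part of any of these cells, or of stage, in the glycolytic values was not tested. Both calls rested on few tumours. The call of Ldhb was lost without any one of the 3 LAP/Blnk tumours or without LAP preB-ALL 3, with adjusted p up to 0.103. The call of Pfkl remained in 1 of 7 such fits, without LAP preB-ALL 4, and was lost in the other 6, with adjusted p up to 0.181. Without the 3 tumours whose Vpreb1 went against their labels Ldhb (-0.68), Pfkl (-1.10) and Slc2a3 (-1.37) were lower. Their limma adjusted p values were 0.0426, 0.0169 and 0.0227, against a background of 4.19%. The 4 probe sets of Slc2a3 had SDs of 0.58 (the one used), 0.48, 0.17 and 0.14 over the arrays.

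LAP preB-ALL against Blnk preB-ALL gave no member past the threshold, against a background of 0.0819% (0.00585% higher, 0.076% lower). At an unadjusted limma p under 0.05, 11 members were below, against 13.2% of all genes. The differences were positive for 24 of 34 members, with a median of 0.20 against 0.0042 over all genes. Pfkl (0.82, limma adjusted p = 0.166) and Pdk3, a kinase that restrains pyruvate dehydrogenase (0.67, limma adjusted p = 0.169), did not overlap between groups, against 4.59% of all genes. Without the 3 tumours no member passed, against a background of 1.16%. LAP preB-ALL 2 was the highest of the 16 tumours for 14 of 34 members and had the highest median of the members, 0.42. The medians of the other LAP preB-ALL were 0.055, 0.30 and 0.14, against -0.15 to 0.25 in Blnk preB-ALL.

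**Figure D4:**
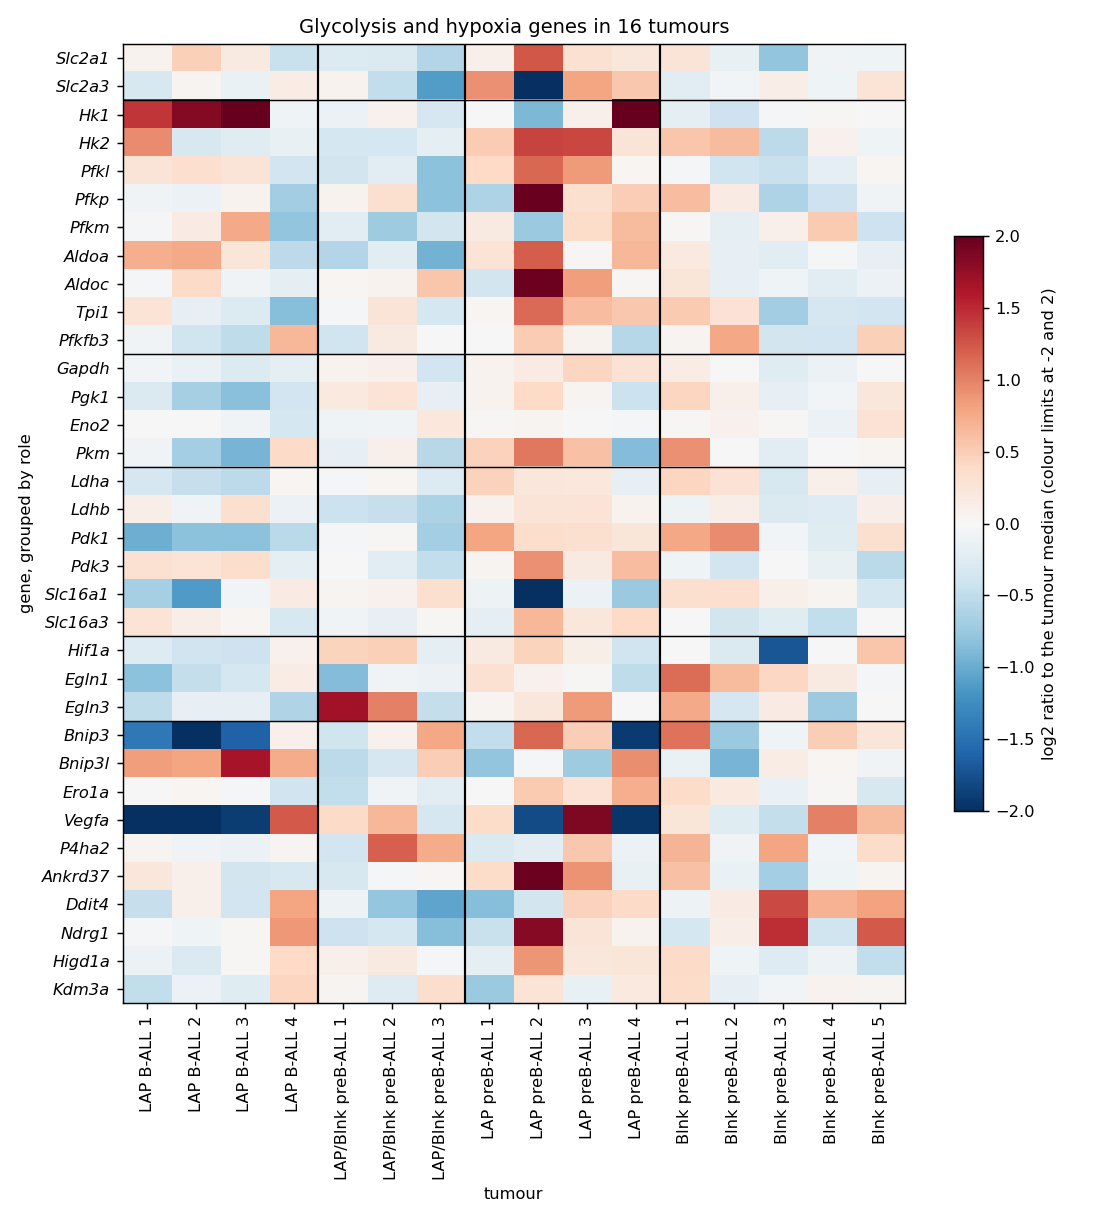
Log2 ratio to the tumour median for 34 genes (rows, grouped by role) in 16 tumours (columns, grouped by label), with colours limited at -2 and 2. Hk1 is high and Bnip3 and Vegfa are low in LAP B-ALL 1 to 3 and LAP preB-ALL 4, and LAP preB-ALL 2 is highest for 14 genes.

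LAP B-ALL against LAP preB-ALL compared both stages within LAP transgenic mice. No member passed, and no gene did at all (background 0%), with 9 members at an unadjusted limma p under 0.05 against 1886 of 17097 genes. Of the 34 differences 30 were negative, with a median of -0.34 against -0.028 over all genes, of which 9589 were negative. Fewer members were negative without the 3 tumours above, though most were: Aldoa (0.42), Pdk3 (0.19) and Pfkp (0.11) were among those that turned positive. With all tumours in, the groups did not overlap for 3 members, against 5.21% of all genes. These were Pdk1, a kinase that restrains pyruvate dehydrogenase (-1.22), Gapdh (-0.40) and Egln3 (-0.65). Pdk1 was at -0.97, -0.83, -0.82 and -0.54 in LAP B-ALL, against 0.78, 0.35, 0.32 and 0.24 in LAP preB-ALL.

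Pdk1 fell in LAP B-ALL against Blnk preB-ALL, the only member past the threshold there, against a background of 1.45% (0.48% higher, 0.971% lower). It was at 0.77, 0.94, -0.054, -0.25 and 0.31 in Blnk preB-ALL, above all 4 LAP B-ALL, and the difference was -1.14 ± 0.24 (limma adjusted p = 0.0330). Its 3 probe sets differed by -1.14, -1.05 and -0.84. The call was lost without LAP B-ALL 1, 2 or 3 or without Blnk preB-ALL 1 or 2, with adjusted p up to 0.110. Pgk1 was at -0.29, -0.66, -0.83 and -0.38 in LAP B-ALL, against 0.43, 0.11, -0.16, -0.059 and 0.22 in Blnk preB-ALL, and missed the threshold (-0.65, limma adjusted p = 0.0728). Bnip3l (2.29-fold higher, limma adjusted p = 0.0898) also did not overlap, and 8.52% of all genes did not.

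Against LAP/Blnk preB-ALL, LAP B-ALL had higher Ldhb, 1 of 34 members against a background of 3.52% (1.32% higher, 2.21% lower). Ldhb was at 0.14, -0.077, 0.32 and -0.12 in LAP B-ALL, against -0.43, -0.46 and -0.63 in LAP/Blnk preB-ALL (0.57 ± 0.13, limma adjusted p = 0.0347), while its second probe set differed by 0.15. The call remained in 1 of 7 fits that left out 1 tumour, without LAP B-ALL 4, and was lost in the other 6, with adjusted p up to 0.132. The comparisons with Ldhb share the LAP/Blnk tumours. The groups did not overlap for 4 members, Pgk1 (-0.64), Ldhb, Bnip3l (1.13) and Ndrg1 (0.73), against 22.2% of all genes.

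Several members split the tumours of 1 label, along with Vpreb1 and the erythroid markers. Hk1, the constitutive hexokinase, was at 1.43, 1.84, 2.20 and -0.078 in LAP B-ALL 1 to 4 and at -0.00098, -0.90, 0.11 and 1.99 in LAP preB-ALL 1 to 4, against -0.33 to 0.092 in LAP/Blnk preB-ALL and -0.42 to 0.020 in Blnk preB-ALL. Hk1 was thus high in LAP B-ALL 1 to 3 and LAP preB-ALL 4 and in no other tumour. Hk2, its inducible relative, was at 0.94, -0.32, -0.25 and -0.16 in LAP B-ALL and at 0.50, 1.35, 1.33 and 0.25 in LAP preB-ALL.

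The paired mitophagy receptors Bnip3 and Bnip3l ran opposite ways in LAP B-ALL 1 to 3 and LAP preB-ALL 4. Bnip3l, which removes mitochondria from maturing red cells, was at 0.83, 0.79, 1.65 and 0.74 in LAP B-ALL, against -0.79, -0.035, -0.71 and 0.93 in LAP preB-ALL. Bnip3, a classical HIF target, was at -1.42, -2.10, -1.61 and 0.098 in LAP B-ALL and at -0.48, 1.15, 0.49 and -1.91 in LAP preB-ALL. Vegfa was at -2.13, -2.20, -1.90 and 1.23 in LAP B-ALL, at 0.38, 0.66 and -0.33 in LAP/Blnk preB-ALL, at 0.37, -1.79, 1.87 and -1.94 in LAP preB-ALL, with 0.25, -0.25, -0.48, 1.00 and 0.63 in Blnk preB-ALL. It was low in all 5 tumours with low Vpreb1 and in no other. LAP preB-ALL 2, the tumour with low Vpreb1 but an erythroid median of -0.62, had low Vegfa like the other 4, but Bnip3 at 1.15, Hk1 at -0.90 and Bnip3l at -0.035. Pdk3 was also higher in those 5 tumours than in any other, at 0.30, 0.27 and 0.35 in LAP B-ALL 1 to 3 and 0.92 and 0.61 in LAP preB-ALL 2 and 4, and at most 0.18 elsewhere. The part of erythroid cells in these values was not tested.

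**Figure D5:**
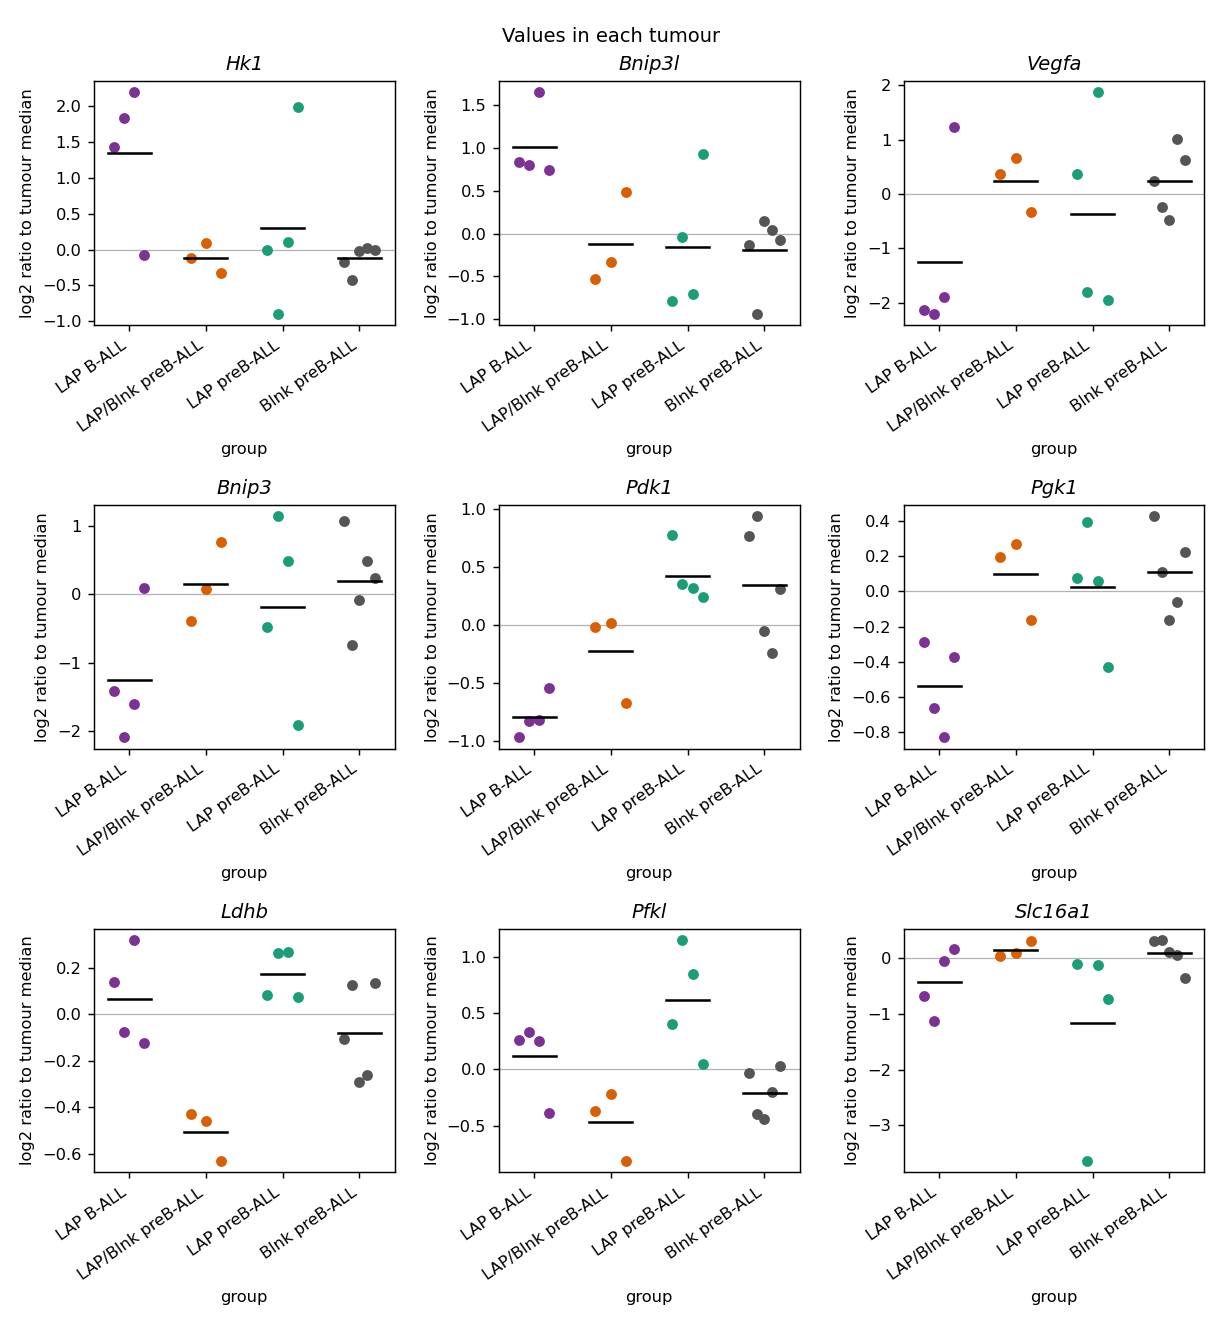
Log2 ratio to the tumour median for 9 genes in each tumour, with black bars at the group means (n = 4, 3, 4 and 5 from left to right). In Hk1, Vegfa and Bnip3 LAP B-ALL 4 sits apart from the other LAP B-ALL and LAP preB-ALL 4 sits beside them, and the vertical scales differ.

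Leaving out the 3 tumours whose Vpreb1 went against their labels, a choice made after seeing the data, brought Hk1, Vegfa, Bnip3 and Bnip3l past the threshold. In LAP B-ALL against LAP preB-ALL (n = 3 and 2) 2 members rose and 5 fell, against a background of 13.3%. Hk1 (1.77 ± 0.21) and Bnip3l (1.84 ± 0.37) rose, and Vegfa (-3.20 ± 0.50), Bnip3 (-1.71 ± 0.50), Pdk1 (-1.43 ± 0.34), Slc2a3 (-0.99 ± 0.28) and Ldha (-0.77 ± 0.20) fell, with limma adjusted p between 3.86e-04 and 0.0449. With all tumours in, none of these 7 genes passed.

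In LAP B-ALL against Blnk preB-ALL (n = 3 and 5) 4 members rose and 6 fell, against a background of 18.1%. Hk1 (1.94), Bnip3l (1.29), Aldoa (0.65) and Pdk3 (0.53) rose. Vegfa (-2.31), Bnip3 (-1.91), Pdk1 (-1.22), Egln1 (-1.02), Slc16a1 (-0.71) and Pgk1 (-0.70) fell. The probe set used for Slc16a1 had an SD of 0.81 over the arrays, against 0.13 for its second. The second Vegfa probe set differed by less than the first with all tumours in, -0.60 against -1.48, in the same direction.

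Against LAP/Blnk preB-ALL (n = 3 and 3) 6 members rose and 3 fell, against a background of 18.5%. Those that rose were Hk1 (1.94), Bnip3l (1.22), Aldoa (1.15), Pfkl (0.75), Ldhb (0.63) and Pdk3 (0.55), and those that fell were Vegfa (-2.31), Bnip3 (-1.86) and Pgk1 (-0.69). The last 3 comparisons share the same 3 LAP B-ALL, each with a median of erythroid markers of 5.08 or more.

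Some genes stood apart in a single tumour. LAP preB-ALL 2 had Slc16a1 at -3.64 against -0.74 to -0.11 in the other LAP preB-ALL, and Slc2a3 at -2.02 against 0.54 to 0.92. In the same tumour Pfkp (1.97), Aldoc (1.96), Ankrd37 (1.96) and Ndrg1 (1.82) were the highest of their group. Blnk preB-ALL 3 had Hif1a at -1.71, against -0.28 to 0.55 in the other Blnk preB-ALL. The other groups had Hif1a at -0.26, -0.39, -0.42 and 0.091 in LAP B-ALL, at 0.44, 0.48 and -0.20 in LAP/Blnk preB-ALL, and 0.17, 0.45, 0.12 and -0.39 in LAP preB-ALL.

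Of the single genes that stand for their role, Slc2a1 and Ldha overlapped between most groups. Slc2a1 was at 0.063, 0.47, 0.19 and -0.44 in LAP B-ALL, at -0.27, -0.30 and -0.59 in LAP/Blnk preB-ALL, at 0.098, 1.24, 0.31 and 0.22 in LAP preB-ALL, with 0.26, -0.15, -0.78, -0.063 and -0.079 in Blnk preB-ALL. Ldha was at -0.33, -0.46, -0.52 and 0.032 in LAP B-ALL, at -0.032, 0.046 and -0.28 in LAP/Blnk preB-ALL, at 0.46, 0.23, 0.21 and -0.16 in LAP preB-ALL, with 0.43, 0.29, -0.32, 0.095 and -0.17 in Blnk preB-ALL. The members' median SD was 0.34 in LAP B-ALL, 0.30 in LAP/Blnk preB-ALL, 0.48 in LAP preB-ALL and 0.37 in Blnk preB-ALL, against 0.16 to 0.24 over all genes.

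Few genes of the neighbouring lists passed in the tumours with all 16 in. Hif1an, an asparagine hydroxylase that blunts HIF, was higher in LAP/Blnk than in LAP preB-ALL (0.98, limma adjusted p = 0.0358) and lower in LAP B-ALL than in LAP/Blnk preB-ALL (-0.90, limma adjusted p = 0.0394). The last comparison also had Tmem45a lower (-0.94) and Prkaa1, the catalytic subunit of an energy-sensing kinase, higher (0.89). In the difference between both LAP effects Prps1, which makes the ribose donor for nucleotides, passed at -0.60, and Fos, of the handling list, at -1.74. The monocyte and macrophage markers Cybb (-2.41) and Lyz2 (-1.86) passed there too, and all 12 measured markers of that list were negative, with a median of -0.88. Their part in the difference of Ero1a was not tested.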

How the data were processed

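Biotin-labelled cRNA from 100 ng of total RNA was hybridised to Affymetrix arrays, per the labels' protocols. The submitters' processing notes name MAS5 alone, without a version. The deposited values are signed log ratios, taken as log2 (their base is not stated). Each of 45141 probe sets had a median of 0 (within 0.0001) over the 8 cell-line arrays and over the 16 tumours, so levels are unknown, and precision depends on how many arrays there are. A 2016 annotation gave names: 28898 had 1 symbol, 551 several and 15692 none. Of 28898, 28689 matched RefSeq (GRCm38.p6). Per gene the probe set of largest SD was used.

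Groups were compared with limma 3.58.1 (R 4.3.3), two-sided, no variance trend, Benjamini-Hochberg over 17097 genes, threshold 0.05, after testing on simulated data. Cell-line arrays, tumours, and the 16 arrays for both LAP effects were fitted separately. The members and lists were chosen with earlier results of these data known. Genes named were all members past the threshold, 1 gene per role, the largest non-overlapping differences and at most 4 called genes per neighbouring list; others were named after their values were seen. Alternatives covered the probe set rule, normalisation, array weights, spread, genes kept, replicate block and single arrays left out.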

Additional observations from a re-analysis of the deposited data

Results flagged for a closer look

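Dixon's test for a value far from the rest of its group was run on 170 combinations of gene and group with 4 or 5 samples, and 12 passed its critical value. Chance alone passes about 1 in 20. In LAP B-ALL, tumour 4 lay apart from the other LAP B-ALL for Vegfa (1.23), Ndrg1 (0.87), Pfkl (-0.38), Pdk3 (-0.18) and Ero1a (-0.40). This is the tumour whose Vpreb1 and Cebpb went against its label. In the same group Hk2 was high in tumour 1 (0.94) and Bnip3l in tumour 3 (1.65). Slc2a3 was low in LAP preB-ALL 2 (-2.02), another tumour whose Vpreb1 went against its label. In Blnk preB-ALL, tumour 1 was high for Aldoc (0.25) and Pkm (0.92), and tumour 2 was low for Bnip3l (-0.94). Among the cell-line arrays LAP replicate 2 was low for Kdm3a (-0.15).

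The difference of Ero1a with LAP was not alike in tumours and cells, by -1.28 on the log2 scale (tumours minus cells) in a test of that difference. LAP came from a transgene in the tumours and from a retrovirus in the cells, so the source of LAP and the setting cannot be told apart.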

How the results depend on the processing

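Among repeats of the named differences under other settings, 207 stayed on their side of the threshold, 54 lost the call and 0 turned direction. In cells the 11 members past the threshold became 1 with all 24 arrays in 1 fit, and 9 to 13 when 1 array was left out. For LAP/Blnk against LAP preB-ALL (2 members) the count was 1 with a gene’s probe set taken by name or with the more variable genes alone, 0 with only the groups compared or with the replicate block, and 0 to 2 when 1 tumour was left out. For LAP B-ALL against Blnk preB-ALL (1 member) it was 0 with the probe set chosen by name, quantile normalisation, only the groups compared or the replicate block, 11 with array weights, and 0 to 4 when 1 tumour was left out, the 4 without LAP B-ALL 4. Over all 17097 genes these became 3619 with array weights and 1835 without LAP B-ALL 4, against 248. For LAP B-ALL against LAP/Blnk preB-ALL (1 member, Ldhb) it was 0 with the mean of probe sets or the more variable genes alone. It was also 0 with only the groups compared, 2 with quantile normalisation and 11 with array weights. With the replicate block it was 7, and Ldhb was not among them. When 1 tumour was left out it was 0 to 3, the 3 without LAP B-ALL 4. Over all genes the counts for this comparison became 4063 with array weights, 2680 with the block and 1980 without LAP B-ALL 4, against 602. For LAP B-ALL against LAP preB-ALL (0 members) leaving out 1 tumour gave 0 to 2, the 2 without LAP preB-ALL 4, where 291 of all genes passed, against 0. For the difference between both LAP effects (1 member) array weights gave 2 and leaving out 1 array 1 to 2, the 2 without LAP/Blnk preB-ALL 1 or Blnk preB-ALL 1. Leaving out the 3 tumours whose Vpreb1 went against their labels was chosen after seeing the data. It gave 7, 10 and 9 members for LAP B-ALL against LAP preB-ALL, Blnk preB-ALL and LAP/Blnk preB-ALL. The causes were not tested. Replicate numbers did not pair the samples: correlations of same-numbered deviations were between -0.640 and 0.355, and no comparison had all of them over 0.1. An alternative without control probe sets was not run, since 0 of them had a gene symbol.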
